A study of Mus musculus with 8 samples.

Results

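The genes described here buffer the energy charge of the muscle cell. They were chosen by symbol: Ckb, Ckm, Ckmt1, Ckmt2, Gamt and Slc6a8 of the creatine system, and Adssl1, Ampd1, Ampd3 and Ak1 of adenylate metabolism. Of these 10 genes, 9 had at least 1 probe set that the platform annotation gives to a single gene, with 12 probe sets in all among the 22626 of the array that are not controls. Ampd1, the muscle AMP deaminase, was not analysed here. Of the 9 genes, 7 were bright enough to enter the test across all probe sets, and Ckmt1 and Ckmt2 were not.

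Phosphocreatine is a store of high-energy phosphate that creatine kinase draws on to remake ATP from ADP at the sites where a muscle cell spends it. Mitochondrial isoforms of the enzyme recharge the store, cytosolic isoforms use it, and creatine itself is either made from guanidinoacetate or imported from the blood. When ADP accumulates, adenylate kinase turns a pair of ADP molecules into ATP and AMP, and AMP deaminase and adenylosuccinate synthetase carry AMP round the purine nucleotide cycle. Developing muscle switches from the brain-type to the muscle-type cytosolic creatine kinase, which makes the isoforms markers of differentiation as well.

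The samples were C2C12 myotubes, mouse myoblasts of an established line that fuse into contractile fibres in low serum (here 2% horse serum), profiled on Affymetrix arrays with 1 array per sample. Both groups were fed in the same way until day 4 of differentiation. The control cells (4 samples, arrays A to D) were then re-fed every 48 h, the starved cells (4 samples, arrays E to H) received no new medium for 4 days, and RNA of both was taken on day 8. The labels do not say whether replicates were separate cultures, so the spread behind each p-value may be a technical one, and all samples come from 1 cell line.

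The trimmed mean intensity ran from 317 to 455 units in the control arrays and from 243 to 366 in the starved arrays, so deposited intensities are lower in starved arrays for most genes. Fold changes therefore come from log2 signals after quantile normalization, which gives all arrays the same distribution, and adjusted p-values are Benjamini-Hochberg values of limma's test over all 13575 probe sets tested (n = 4 arrays per group throughout). Control B stood apart in the log2 ratio of its 3' to its 5' Gapdh control probe set, at 1.40 against -0.23 to -0.039 in the other 7 arrays. All 10 myotube markers had a mean signal above the 94th percentile of probe sets. So did Acta2 of smooth muscle (99.8), Col3a1 of fibroblasts (98.6) and Myod1 of myoblasts (97.2), so this level does not set myotubes apart. The median log2 fold change of the 10 myotube markers was -0.11, beside 0.014 over all tested genes. Their summed normalized signal, in which bright genes weigh most, was 79210 to 81960 units in controls and 74413 to 78561 in starved arrays. Of the 10 markers, 0 were called higher and 1, Des, fell by 0.22 ± 0.05 (SE, adjusted p = 0.0142). The other tested probe set of Des stood at 0.12 (adjusted p = 0.640). Starved and control arrays were fully apart for 4 of the 10, as they were, in either direction, for 1542 of all 8352 tested genes. Des, Myh3 (-0.13) and Cav3 (-0.33) were lower, and Myog was higher (0.29, adjusted p = 0.238). For Myog, control B stood at a log2 signal of 11.90, the other controls at 12.56 to 12.66 and the starved arrays at 12.68 to 12.76. As deposited, the groups overlapped for Myog.

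Of the 7 tested genes 3 fell in starved myotubes, 1 rose and 3 did not pass an adjusted p of 0.05. Among all 8352 tested genes 6.93% were called lower and 4.25% higher. The groups did not overlap, with starved lower, for 3 of the 7 genes and for 10.3% of all tested genes. The brain-type creatine kinase Ckb, the creatine-making enzyme Gamt and the muscle adenylosuccinate synthetase Adssl1 were the members that fell. Ampd3, the red blood cell-type AMP deaminase, rose. The muscle creatine kinase Ckm, the creatine transporter Slc6a8 and the cytosolic adenylate kinase Ak1 did not pass. The median log2 fold change of the 7 genes was -0.22, beside 0.014 over all tested genes.

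**Figure D1:**
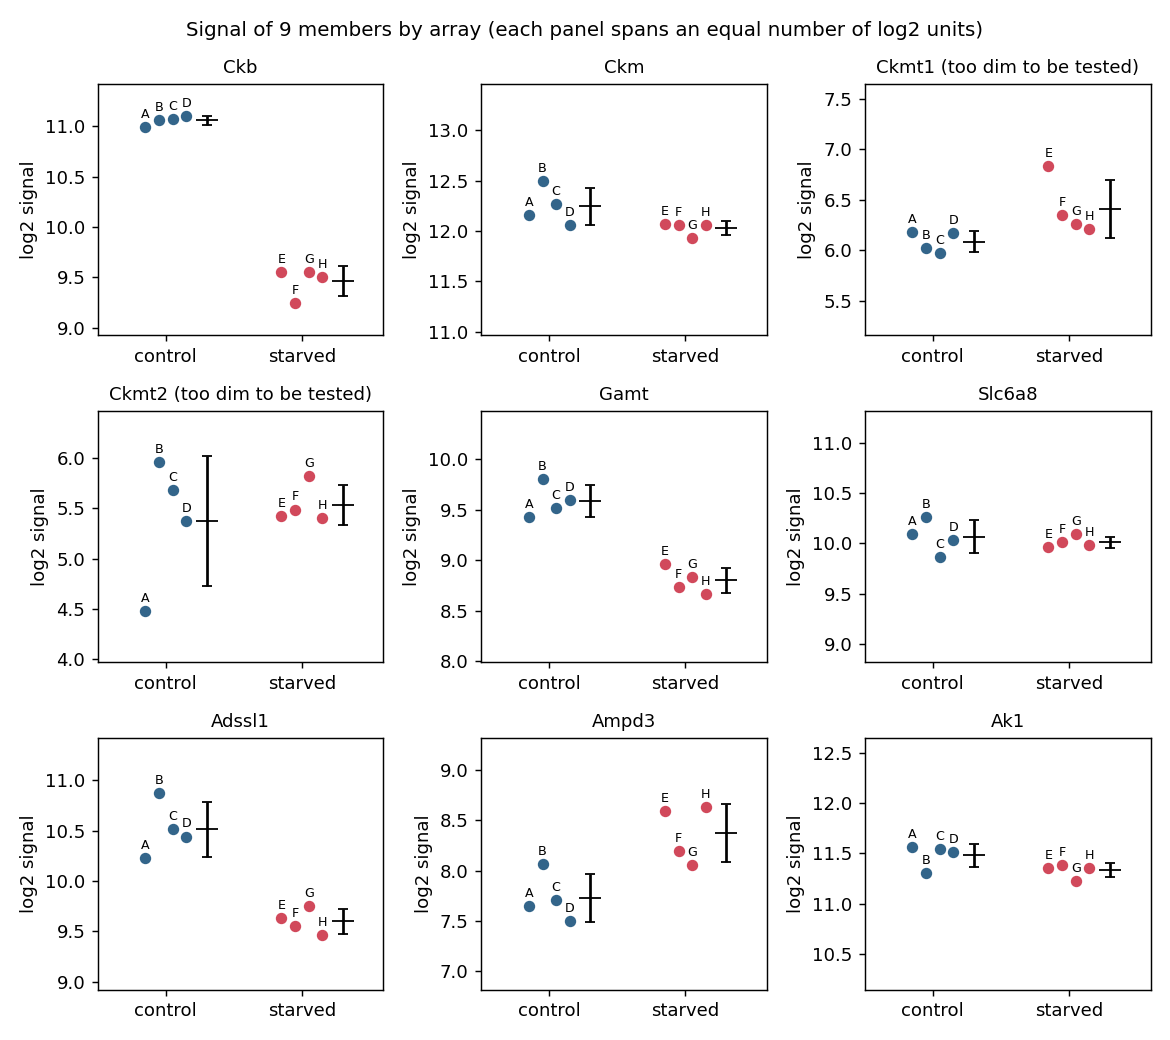
Quantile-normalized log2 signal of the brightest probe set of 9 genes, by array (points, lettered A to H), with the mean and SD of each group of 4 (bars). For Ckb, Gamt and Adssl1 the 4 starved arrays lie below the 4 control arrays, and for Ckmt1, too dim to be tested, they lie above. For Ckm, Ckmt2, Slc6a8, Ampd3 and Ak1 the groups overlap.

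The sequences upstream of Ckb, Ckm and Adssl1 are shown because the cytosolic creatine kinases changed unequally and because Ckb and Adssl1 fell together. Each is the 250 bases before the annotated start in RefSeq, build GRCm38.p6, written 5′ to 3′ on the gene's strand. That of Ckb is chr12:111672339-111672588 (minus strand), that of Ckm chr7:19410844-19411093 (plus strand) and that of Adssl1 chr12:112619797-112620046 (plus strand). Capitals mark matches, on either strand, to the E-box CANNTG, the CCAAT box CCAAT, the TATA motifs TATAAA and TATATA, and the MEF2 consensus, a site of the muscle factors of the MEF2 family.
Ckb: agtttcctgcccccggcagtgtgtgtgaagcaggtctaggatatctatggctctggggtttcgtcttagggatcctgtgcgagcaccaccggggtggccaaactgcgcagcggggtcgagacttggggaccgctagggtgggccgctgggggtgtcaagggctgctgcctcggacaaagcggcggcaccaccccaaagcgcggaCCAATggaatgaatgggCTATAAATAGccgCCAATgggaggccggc
Ckm: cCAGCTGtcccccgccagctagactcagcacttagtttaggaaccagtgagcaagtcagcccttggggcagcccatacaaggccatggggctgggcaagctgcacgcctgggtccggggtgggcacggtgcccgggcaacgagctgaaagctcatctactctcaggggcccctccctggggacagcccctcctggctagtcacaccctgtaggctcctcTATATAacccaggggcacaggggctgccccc
Adssl1: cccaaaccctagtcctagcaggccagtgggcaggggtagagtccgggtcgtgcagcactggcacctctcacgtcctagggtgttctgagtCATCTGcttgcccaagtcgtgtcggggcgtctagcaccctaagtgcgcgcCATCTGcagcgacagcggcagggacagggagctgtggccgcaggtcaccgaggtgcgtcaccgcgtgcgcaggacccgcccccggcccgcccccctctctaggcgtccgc

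The Ckb window held 2 CCAAT boxes, whose first bases lie 46 and 16 bases before the start, and no E-box. Its TATAAA match, which begins 28 bases before the start, lies inside the MEF2 match CTATAAATAG. Ckm had 1 E-box at the far end of the window, 249 bases before the start, and a TATATA match 31 bases before it. The Adssl1 window held 2 E-boxes, both CATCTG, at 160 and 110 bases before the start, and none of the other motifs, and that of Gamt, not printed because it overlaps the annotated gene, held none of the 5. Among the 32851 RefSeq windows of 250 bases, 66.2% hold an E-box, 33.8% a CCAAT box, 12.4% TATAAA, 5.25% TATATA and 0.508% the MEF2 consensus. These matches describe letters only, and binding was not measured. Windows of 8 of the 10 genes were in the RefSeq table.

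Ckb encodes the cytosolic creatine kinase of brain, smooth muscle and immature muscle cells. Its deposited intensities in the control arrays A to D were 2656, 2069, 2197 and 2818, and those in the starved arrays E to H were 532, 492, 650 and 795. The dimmest control array was thus well above the brightest starved array, and the groups did not overlap. After normalization the mean log2 signal was 11.06 ± 0.05 (SD) in controls and 9.46 ± 0.15 in starved myotubes. Ckb fell by 1.60 ± 0.09 on the log2 scale (SE; 3.02-fold lower, adjusted p = 1.13e-06), which placed it 28th from the lowest of the 8352 genes. Among those genes 1.39% were called with at least a 2-fold fall. In a bulk sample, fewer cells that express a gene and less of its RNA per cell cannot be told apart.

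Ckm encodes the cytosolic isoform of mature muscle, which is also bound to the M-band of the sarcomere. Controls A to D read 5796, 5747, 5131 and 5408 units, and starved arrays E to H read 3268, 3530, 3669 and 4398. As deposited, the groups did not overlap. After normalization they did, at 12.06 to 12.49 in controls and 11.93 to 12.07 in starved arrays, and the log2 fold change was -0.22 ± 0.09 (adjusted p = 0.166). Ckm was called lower only when the deposited values were left unscaled (log2 fold change -0.58, adjusted p = 0.00921), where the median of the tested probe sets stood at -0.33. Ckm lay 0.24 below the median there and 0.23 below it after quantile normalization.

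The difference between the cytosolic isoforms was compared within arrays, which takes out any scaling by a constant. The log2 signal of Ckb minus that of Ckm was -1.16, -1.44, -1.19 and -0.95 in controls A to D. In starved E to H it was -2.52, -2.82, -2.38 and -2.55. Signals of different probe sets share no scale, so only the change in this difference can be read. It was -1.38 ± 0.14 (SE; two-sided exact permutation test, p = 0.0286, the smallest that 70 labellings can give; 0.0429 adjusted over 3 pairs), lower in 4 of 4 starved arrays than in any control. Ckb and Ckm therefore changed unequally, with a difference from -1.46 to -1.30 over all alternatives.

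**Figure D2:**
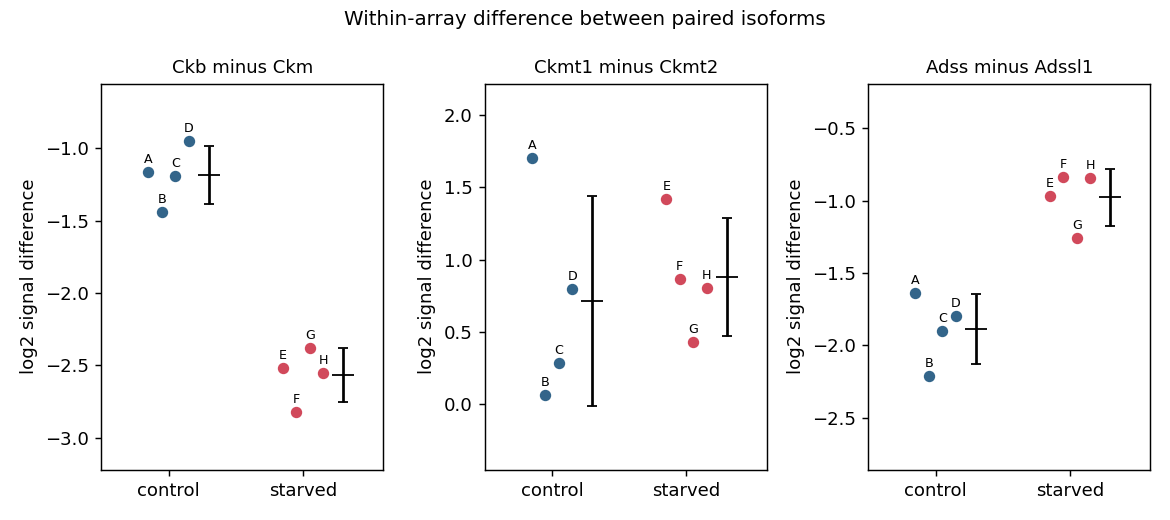
Within-array difference of the log2 signals of paired genes, by array (points, lettered A to H), with the mean and SD of each group of 4 (bars). The starved arrays lie apart from the controls for Ckb minus Ckm (-2.57 against -1.19) and Adss minus Adssl1 (-0.98 against -1.89), and overlap with them for Ckmt1 minus Ckmt2.

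The mitochondrial creatine kinases were dim. Ckmt1, the ubiquitous isoform, had 92.6, 51.8, 55.3 and 70.5 units in the controls on the brighter of its 2 probe sets, against 74.4, 63.2, 56.8 and 66.9 in the starved arrays. Ckmt2, the isoform of striated muscle, read 17.1, 49.5, 44.1 and 33.0 in controls and 21.4, 31.5, 40.5 and 28.9 in starved arrays. Their mean signals stood at the 34.0th and 22.1st percentile of all probe sets, below the 40th percentile from which probe sets were tested, and the table holds no detection calls. The log2 differences, given without a test, were 0.33 for Ckmt1 and 0.16 for Ckmt2. After normalization the groups did not overlap for Ckmt1, at 5.97 to 6.18 in controls and 6.21 to 6.83 in starved arrays. Its adjusted p was 0.507 in limma's fit without a brightness filter. In unscaled values both differences were below 0 (-0.018 and -0.14). Ckmt2 was also below 0 when control A was left out (-0.14). For Ckmt1 minus Ckmt2 the change was 0.17 ± 0.42 (two-sided exact permutation p = 0.657, adjusted p = 0.657), and its sign turned when control B or starved E was left out. The other Ckmt1 probe set was dimmer still, between 6.8 and 32.8 units in all arrays.

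Creatine supply rests on Gatm and Gamt, which make creatine in sequence, and on Slc6a8, which imports it. Gamt, guanidinoacetate methyltransferase, measured 930, 849, 747 and 980 units in the 4 controls, in the order A to D, and 352, 344, 385 and 453 in starved arrays E to H. All 4 starved arrays were dimmer than every control, as deposited and after normalization. Gamt fell by 0.79 ± 0.11 on the log2 scale (1.73-fold lower, adjusted p = 9.48e-04). Gatm, the enzyme of the step before, had a log2 fold change of 0.014 ± 0.16 (adjusted p = 0.970), with intensities from 265 to 442 in controls and from 167 to 334 in starved arrays. Whether Gamt and Gatm changed unequally was not tested.

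Slc6a8 was measured by 2 probe sets that both passed the brightness filter. The brighter gave 1469, 1178, 960 and 1329 units for the controls and 714, 832, 966 and 1091 for the starved arrays, and its log2 fold change was -0.054 ± 0.10 (adjusted p = 0.789). The other stood at 0.016 ± 0.20 (adjusted p = 0.973). The probe sets differed in control B, which was the highest control on the first (log2 signal 10.27) and the lowest on the second (8.49). No change of the transporter passed the test, and the interval of 1 SE around the first estimate runs over both directions.

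In the purine nucleotide cycle, Adssl1 makes adenylosuccinate from IMP in muscle, and Adss does so in other tissues. Adssl1 had intensities of 1589, 1821, 1496 and 1796 in the controls, whereas the starved arrays had 562, 610, 749 and 772. No starved array reached the level of any control. Adssl1 fell by 0.92 ± 0.13 on the log2 scale (1.89-fold lower, adjusted p = 0.00105). Adss read 522, 363, 389 and 496 units in controls and 285, 340, 299 and 439 in starved arrays, and had a log2 fold change of -0.0029 ± 0.10 (adjusted p = 0.991). The within-array difference of Adss minus Adssl1 changed by 0.91 ± 0.16 (two-sided exact permutation p = 0.0286, the smallest possible; 0.0429 adjusted over 3 pairs) and was higher in 4 of 4 starved arrays than in any control. Adsl, the lyase of the next step, did not pass (0.23 ± 0.09, adjusted p = 0.171), although its groups did not overlap. The deaminase isoform Ampd2 (0.015 ± 0.12, adjusted p = 0.957) did not pass either.

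Ampd3 deaminates AMP to IMP and is the isoform known to rise in atrophying and denervated muscle. The deposited intensities were 270, 230, 201 and 211 for the controls, and 270, 237, 217 and 444 for starved arrays E to H. As deposited the groups overlapped, and starved H was the brightest. After normalization the log2 signals were 7.65, 8.06, 7.71 and 7.50 in controls and 8.59, 8.20, 8.05 and 8.63 in starved arrays. Starved E, F and H then lay above every control, and starved G just below control B. Ampd3 rose by 0.64 ± 0.17 on the log2 scale (1.56-fold, adjusted p = 0.0360). The call rests on the processing and on single arrays: in unscaled values the log2 fold change was 0.29 (adjusted p = 0.436), it had an adjusted p of 0.0632 without a brightness filter and 0.0501 without an intensity trend, and when control A, C or D or starved E, F or H was left out the adjusted p ran from 0.0547 to 0.102.

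Ak1, the adenylate kinase of the muscle cytosol, had a bright and a dim probe set. The bright one had 3923, 2489, 3044 and 3655 units in the controls against 1961, 2205, 2233 and 2736 in the starved arrays, and its log2 fold change was -0.15 ± 0.08 (adjusted p = 0.263). Control B was the lowest control, and the groups overlapped after normalization. The dim one, too dim to be tested, stood at 0.29, so that the mean of both was at 0.071 (adjusted p = 0.726).

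**Figure D3:**
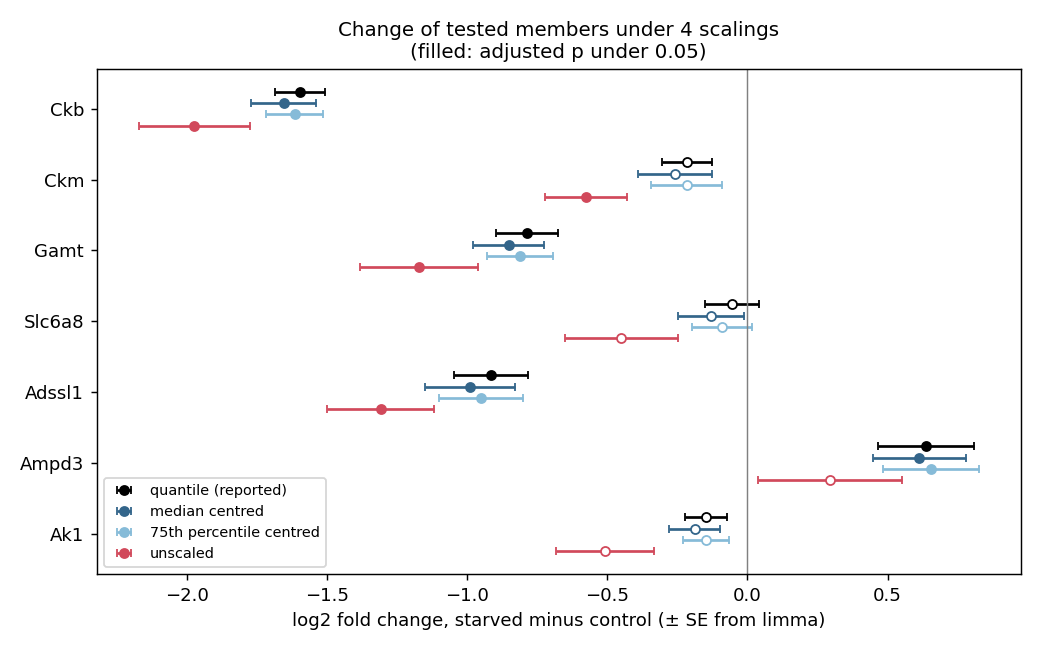
Log2 fold change (starved minus control, with limma's SE) of the 7 tested genes under 4 ways of scaling the arrays; filled points have an adjusted p under 0.05. Ckb, Gamt and Adssl1 are called lower in each scaling, whereas Ckm is called only in unscaled values (-0.58) and Ampd3 loses its call there (0.29).

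The 3 falls held in each alternative that could be applied to them. Ckb, Gamt and Adssl1 were measured by 1 probe set each, so averaging of probe sets could not be tried for these genes. Over the alternatives Ckb ran from -1.97 to -1.52, Gamt from -1.17 to -0.71 and Adssl1 from -1.31 to -0.79, with a highest adjusted p of 1.94e-05, 0.00462 and 0.00489. Control B, the array with the high Gapdh ratio, was the highest control for Ckm, Gamt, Adssl1 and Ampd3 and for the brighter probe set of Slc6a8. Without it Gamt fell by 0.71, Adssl1 fell by 0.79 and Ckb fell by 1.60 (adjusted p = 0.00166, 7.24e-04 and 3.48e-06), Ckm stood at -0.13 (adjusted p = 0.280) and Ampd3 rose by 0.75 (adjusted p = 0.0150). The number of members called was the same without control B, with 3 lower and 1 higher.

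Besides myotubes, Ckb is known from smooth muscle, neurons and dividing myoblasts, and markers of these cells were read on the same arrays. The smooth muscle markers had 2 of 3 tested genes called lower, beside 6.93% of all tested genes. These were Tagln (fell by 2.65) and Acta2 (fell by 0.30). The summed normalized signal of all 5 was 12028 to 12561 units in controls and 8613 to 9449 in starved arrays. Most of that sum is the signal of Acta2, so it does not speak for the 5 genes as a set. Myh11 and Cnn1, the defining genes of mature smooth muscle, were too dim to be tested. The 6 myoblast and proliferation markers summed to 2763 to 3427 units in controls and 3293 to 4120 in starved arrays, and without Myod1 to 752 to 884 units in controls and 479 to 656 in starved arrays. Of the 5 tested, 4 had a log2 fold change below 0: Cdk1 fell by 0.82 (adjusted p = 0.00159), Top2a stood at -0.98 (adjusted p = 0.142, groups not overlapping), Pax7 at -0.10 and Mki67 at -0.037. Myod1 was at 0.36 (adjusted p = 0.0600), and Myf5 was too dim to be tested. Of 4 neuron and glia markers 3 had a probe set of a single gene. They summed to 139 to 240 units in controls and 218 to 296 in starved arrays. Only Syp was bright enough to be tested, at 0.55 (adjusted p = 0.160) and, on its other tested probe set, 0.19 (adjusted p = 0.642). Snap25, too dim to be tested, was at a mean of 4.45 units in controls and 13.9 in starved arrays. Fibroblast markers had 1 of 6 called higher, beside 4.25% of all tested genes, and 1 called lower. They summed to 6876 to 7505 units in controls and 6726 to 8078 in starved arrays. No marker was listed at 0 as a group mean, and the part of these cell types in the changes of Ckb was not tested.

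The genes whose profile over the 8 arrays was closest to that of Ckb were Idi1 of cholesterol synthesis, the basement membrane collagen Col4a1 and the aryl hydrocarbon receptor Ahr. Their centred log2 signals differed from those of Ckb by a mean of 0.074, 0.074 and 0.083, where the median over the tested genes was 0.81. These genes were picked for the smallest differences, so falls of a like size follow from the choice. A gene without a change lies far from Ckb by this measure. The median therefore reflects the size of the fall of Ckb rather than how alike profiles are in general. On the log2 scale Idi1 fell by 1.59, Col4a1 fell by 1.59 and Ahr fell by 1.60. A shared chromosome was not particular to 1 pair of members: Ckm and Ampd3 both lie on 7, and Ak1 and Ckmt1 both on 2. Ckb and Adssl1 lie on the same chromosome, 12, 947708 bases apart in GRCm38.p6, with 15 protein-coding genes between them. Of these 4 were tested, 0 were called in limma's test and 1 had an unadjusted p under 0.05 (log2 fold changes from -0.32 to 0.083, lowest adjusted p = 0.0769, for Klc1, a kinesin light chain).

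Other genes of creatine and adenylate metabolism were taken from a wider list. Of 43 genes listed, 34 had a probe set of a single gene and 30 were tested; 1 was called higher, 2 were called lower and 27 did not pass, with a median log2 fold change of 0.016. The called number is close to the 11.2% called among all tested genes, whose median was 0.014. Pnp, which splits inosine and guanosine, fell by 0.72 ± 0.14 (adjusted p = 0.00666), with 469, 407, 318 and 395 units in the controls against 167, 156, 176 and 237 in the starved arrays, and the groups did not overlap. Ak3, the GTP-dependent adenylate kinase of the mitochondrial matrix, fell by 0.36 ± 0.10 (adjusted p = 0.0415), a call lost when any 1 of controls A to D or starved E, F or H was left out. With the mean of its 3 probe sets Ak3 was at -0.057 (adjusted p = 0.882). The other tested probe set of Ak3 stood at -0.22 (adjusted p = 0.357), and the third, too dim to be tested, at 0.41. Vdac3, a channel of the outer mitochondrial membrane, rose by 0.55 ± 0.11 (adjusted p = 0.00721), a call lost in unscaled values (0.20, adjusted p = 0.447).

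By role, 1 of 3 tested adenylate kinases of the list fell, 1 of 9 genes of adenosine and AMP handling fell, and 1 of 6 carriers and channels rose. Over all tested genes 6.93% were called lower and 4.25% higher, and single calls in lists of this size say nothing of a role as a whole. The 5 nucleoside diphosphate kinases, which pass phosphate between nucleotides, had 0 called in limma's test and, on their brightest probe sets, 0 with an unadjusted p under 0.05. The other tested probe set of Nme1 stood at -0.28 ± 0.09 (unadjusted p = 0.0123, adjusted p = 0.0884), with groups that did not overlap. Of AMP-activated kinase, the sensor of a falling energy charge, the catalytic subunits Prkaa1 and Prkaa2 had no probe set of a single gene. Prkab2 and Prkag3 had none either. The 3 tested subunits and regulators, Prkab1, Prkag1 and Stk11, had 0 called and, on their brightest probe sets, 1 with an unadjusted p under 0.05. This was Prkab1, at -0.45 ± 0.15 (adjusted p = 0.0829), with groups that did not overlap. The ATP-ADP carriers of mitochondria, Slc25a4 (0.12 ± 0.08, adjusted p = 0.378) and Slc25a5 (0.16 ± 0.07, adjusted p = 0.216), did not pass on their brightest probe sets. Of the 8 tested probe sets of Slc25a5, 2 were called higher, at 0.31 (adjusted p = 0.00940) and 0.34 (adjusted p = 0.0267). Both calls were lost in each other scaling, and in unscaled values the log2 fold changes were -0.043 and -0.056.

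**Figure D4:**
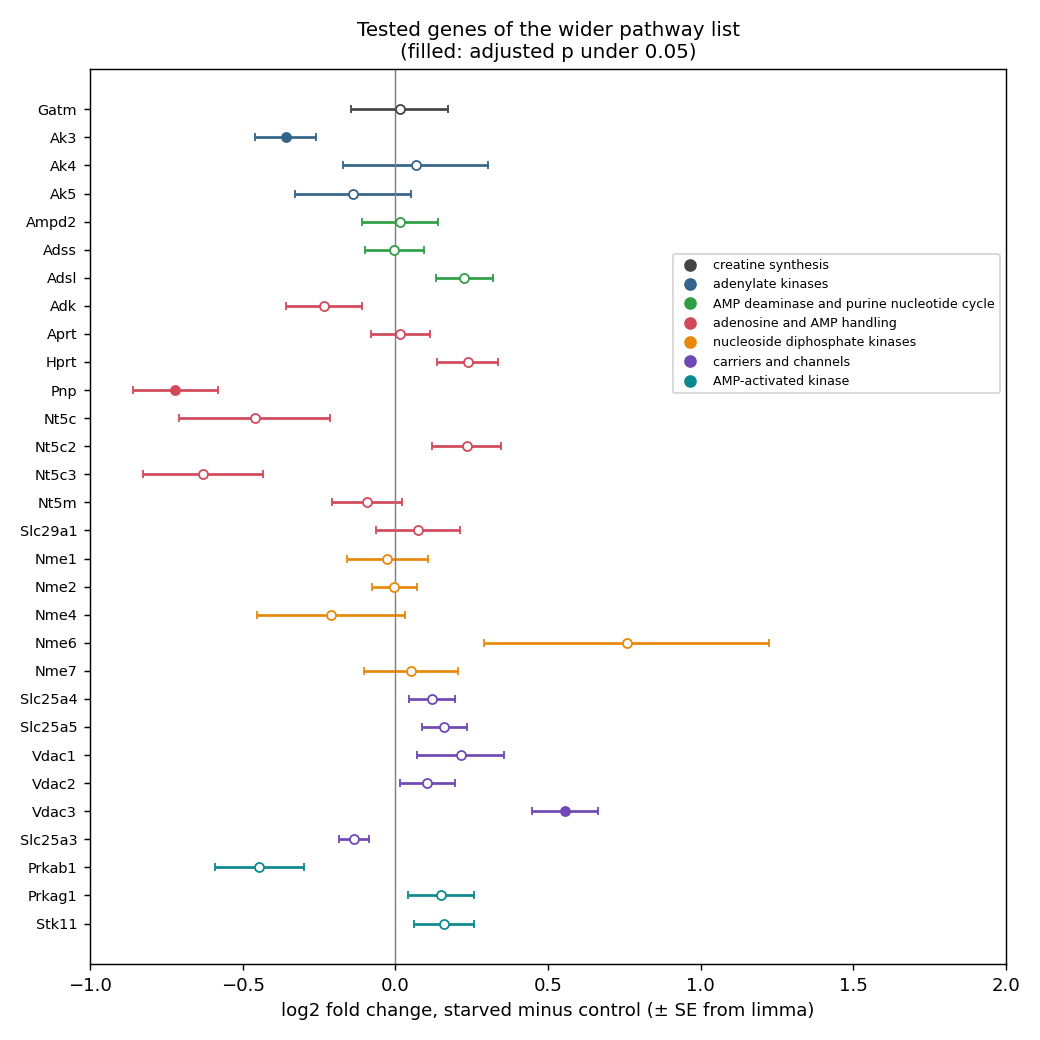
Log2 fold change (starved minus control, with limma's SE) of the 30 tested genes of the wider list, coloured by role; filled points have an adjusted p under 0.05. Filled points are those of Ak3 (-0.36), Pnp (-0.72) and Vdac3 (0.55).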

How the data were processed

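The deposited table holds 1 intensity per probe set and array on a linear scale. The authors' software and scaling are not given in the sources used here, and no detection calls were used. Groups and array letters come from the labels; letters differ between groups and pair nothing. The offset 10.9 (10th percentile of all values) was added before log2, and arrays were quantile normalized; folds of dim genes are understated. Of 22690 probe sets 64 controls were left out, and the test took probe sets whose mean exceeded the 40th percentile (log2 6.61). The platform annotation of 2016 gave 1 symbol to 20380 of the remaining 22626, several to 691 and none to 1555, and 20351 matched RefSeq GRCm38.p6 by gene number. A gene is represented by its brightest tested probe set, 8352 genes in all.

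Limma 3.58.1 in R 4.3.3 (lmFit, eBayes with intensity trend) was fitted to all tested probe sets. Each pair of genes was tested by exact permutation (two-sided, 70 labellings); a pair of Ampd3 with Ampd1 could not be formed. Every member, the called genes of the pathway list, the second gene of each pair and the 3 genes closest to Ckb are named; Adsl, Ampd2, Gatm, Prkab1, Slc25a4, Slc25a5, Nme1, Klc1 and the dim genes were added after their values were seen, as was the distance between Ckb and Adssl1. Members and lists were chosen with earlier results of these data known. Alternatives concerned scaling, offset, brightness filter, eBayes settings, array weights, averaging of probe sets, and each array left out. On simulated data (200 of 13575 probe sets changed) limma recovered 25.4% of log2 changes of 0.5, 76.1% of 1 and 81.8% of 2, with 6 false among 128 calls. That share of changed probe sets is below the 11.2% of genes called in the real data. The Benjamini-Hochberg cut-off depends on this share, so the recovery rates need not hold for the real test. Figures were drawn with matplotlib 3.10.9.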

Additional observations from a re-analysis of the deposited data

Results flagged for a closer look

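In 24 groups of 4 arrays (12 probe sets, each in controls and in starved arrays), 2 had an array whose gap to the nearest other exceeded 0.829 of the group's range, a limit that about 1 in 20 groups passes by chance. Ckb in starved F, at a log2 signal of 9.24, was below the other 3 starved arrays (9.50 to 9.55), with a gap of 0.842 of the range. Ckm in starved G, at 11.93, was below the other 3 (12.06 to 12.07), with a gap of 0.925 of the range. Both values lie on the side away from the controls' mean. Without starved F, the fall of Ckb measured -1.52 (limma, adjusted p = 5.29e-06).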

How the results depend on the processing

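In unscaled values 45 genes were called higher and 1027 lower, and with median centring 217 were higher; leaving out 1 array gave 226 (without starved F) to 370 higher and 435 to 542 lower. Of the members, 0 were called higher in unscaled values, without a brightness filter and without an intensity trend, and 0 to 1 when 1 array was left out; 3 were called lower in each alternative except unscaled values, where Ckm made 4. The pair Ckmt1 minus Ckmt2 ran from -0.048 to 0.50 when 1 array was left out. Signs turned for Slc6a8 without control B (0.012; -0.12 to 0.012 over single arrays left out), for Ak1 as the mean over probe sets (0.071), and for Adss with array weights (0.011) and without control B (0.0096), control D (0.0031) or starved G (0.041; -0.035 to 0.041), none of them called. The untested Ckmt2 ran from -0.14 (without control A) to 0.35 over single arrays left out, and in unscaled values both Ckmt2 (-0.14) and Ckmt1 (-0.018) were below 0. The causes were not tested, beyond the shift of the median of the tested probe sets to -0.33 in unscaled values, where 4.2% of called genes were higher, against 38% after quantile normalization. The number of arrays limits the precision, and without detection calls no background can be set for dim genes. No paired analysis was possible because the labels give the groups different letters.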

Other observations

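Ada, which turns adenosine into inosine, had too low a mean signal for the test, but its groups did not overlap as deposited, although they did after normalization. Its intensities were 70.3, 84.0, 70.2 and 96.0 units in the controls, and 12.8, 45.1, 26.3 and 15.9 in the starved arrays. Its log2 difference was -1.10, and the adjusted p was 0.0660 in limma's fit without a brightness filter. Nt5e, which makes adenosine from AMP outside the cell, was dim as well, with means of 31.7 units in controls and 41.8 in starved arrays and a log2 difference of 0.62, which did not pass in the same fit.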
